A study of Homo sapiens with 6 samples.

Results

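A group of 3 genes of neural biology, *TRNP1*, *L1CAM* and *INA*, was followed in HEK293T cells that over-expressed *USF1*. They were chosen by name, after their values in the comparison of USF1 with Empty vector cells were known, and every probe set that the platform annotation gives to one of them was taken. This gave 3 probe sets, 1 for each gene and none shared with another gene, of 16569 probe sets and 9586 named genes in the deposited values. The USF1 group was HEK293T cells transiently transfected with a plasmid that carries the *USF1* coding region, and the Empty vector group was HEK293T cells transfected with the empty vector, with RNA taken 48 hours after transfection in both groups. Each group had 3 arrays, and no label says that replicates stem from separate transfections, so the variation behind each p-value is that among these 6 arrays and could be technical. HEK293T is a human embryonic kidney line with the SV40 large T antigen that also makes USF1 of its own, the plasmid is expected in only those cells that took it up, and each array reads the RNA of the whole dish. A lower value in such bulk RNA cannot tell fewer expressing cells from less RNA in each cell.

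*TRNP1* encodes a small nuclear protein, named as a nuclear protein regulated by TMF1, which in the mouse cortex is made by neural progenitors and governs whether they divide to renew themselves or to give rise to later progenitors. *L1CAM* encodes a transmembrane adhesion molecule of the immunoglobulin superfamily that sits on growing axons, binds ankyrin with its cytoplasmic tail and is cut from the surface by metalloproteases, and it is also made in the collecting duct of the kidney. *INA* encodes alpha-internexin, an intermediate filament protein of neurons that co-assembles with the neurofilament subunits. HEK293 cells, although derived from kidney, are known to make neurofilaments and other neuronal proteins. *USF1* is a basic helix-loop-helix leucine zipper factor that binds E-boxes, of which CACGTG is the form it prefers.

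The sequences before the starts of the 3 genes are shown because the over-expressed factor binds DNA directly. The windows are the 250 bases before a start given by RefSeq on build GRCh38.p14, chr1:26993442-26993691 on the plus strand for *TRNP1*, chrX:153876015-153876264 on the minus strand for *L1CAM* and chr10:103276888-103277137 on the plus strand for *INA*. The *L1CAM* gene spans chrX:153861514-153886173, so its window lies inside the gene, before an internal start. No window before its outermost start was examined. They are printed 5′ to 3′, and capitals mark every match to CANNTG, the general E-box, which reads the same on both strands.
TRNP1: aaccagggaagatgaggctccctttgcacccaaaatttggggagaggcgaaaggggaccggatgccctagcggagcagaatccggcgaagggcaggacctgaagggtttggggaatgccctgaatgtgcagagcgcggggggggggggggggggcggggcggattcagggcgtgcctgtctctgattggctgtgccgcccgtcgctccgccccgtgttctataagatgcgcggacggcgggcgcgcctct
L1CAM: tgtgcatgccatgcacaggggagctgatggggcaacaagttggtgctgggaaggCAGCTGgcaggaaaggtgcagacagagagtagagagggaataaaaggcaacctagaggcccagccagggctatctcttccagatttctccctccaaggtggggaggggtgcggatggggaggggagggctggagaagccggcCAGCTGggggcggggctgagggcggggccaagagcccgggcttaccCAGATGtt
INA: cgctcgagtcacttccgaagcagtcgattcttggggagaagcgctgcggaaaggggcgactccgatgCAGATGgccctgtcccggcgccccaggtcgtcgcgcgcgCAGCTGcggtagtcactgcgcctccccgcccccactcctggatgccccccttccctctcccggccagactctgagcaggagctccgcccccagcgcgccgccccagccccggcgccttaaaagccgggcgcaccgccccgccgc

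None of the 3 windows held CACGTG, which 6.34% of 35116 RefSeq windows of the same length hold. The *TRNP1* window held no CANNTG either, as is the case for 38.2% of all windows. The *L1CAM* window held 3 matches to CANNTG. Their letters were CAGCTG at 196 and 54 bases and CAGATG at 8 bases before this internal start. A second, overlapping RefSeq window of *L1CAM* held 2, and both lie within the window printed. The *INA* window held CAGATG at 183 and CAGCTG at 144 bases before the start. The *TRNP1* window, unlike the other 2, held ATTGG, the reverse strand of CCAAT, at 66 bases and TATAA at 31 bases before the start. On either strand CCAAT occurs in 32% and TATAA in 18.9% of all windows. GC content was 66.4% for *TRNP1*, 62.8% for *L1CAM* and 72.8% for *INA*, against a median of 58% over all windows. These matches describe letters in short windows and do not show where *USF1* binds.

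The arrays as a whole bear on every value below. The authors deposited log2 values made with RMA, in which array medians lay between 5.88 and 6.0. Empty vector replicate 1 stood apart from the other Empty vector arrays, with an SD of 0.336 over all probe sets in each comparison, where other pairs of arrays of a group had 0.149 to 0.222. The actin control probe sets, whose 5′ minus 3′ value falls when RNA is degraded, were at -0.681 to -0.493 in USF1 arrays and at -1.34, -1.04 and -0.516 in Empty vector replicates 1, 2 and 3. The same value of the GAPDH controls was -0.345 to -0.322 in USF1 arrays and -0.582, -0.316 and -0.256 in these replicates. By GAPDH only Empty vector replicate 1 was lower than the USF1 arrays. With limma and a threshold of 0.05 on the adjusted p-value, 11.9% of all probe sets were called changed, 4.32% upward and 7.6% downward. Upward calls made up 36.2% of these, 56.1% with array medians set equal and 50.4% with a further quantile normalization. Without single arrays the share lay between 29.4% (without USF1 replicate 2) and 60.2% (without USF1 replicate 3). The median log2 difference over all probe sets was -0.065. *USF1* itself was read by 1 probe set, at 4.76, 4.94 and 4.68 in USF1 arrays and 4.37, 5.08 and 5.14 in Empty vector arrays, which overlap. The plasmid holds the coding region alone and the position of these probes is not stated, so this value is no check of the groups' labels. The authors report over-expression of the USF1 protein by western blot.

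*TRNP1* was much higher in cells that over-expressed *USF1*. Its probe set (Entrez gene 388610) had log2 values of 6.56, 6.42 and 6.67 in USF1 replicates 1, 2 and 3, against 4.31, 4.65 and 4.50 in Empty vector replicates 1, 2 and 3. Every USF1 array lay above every Empty vector array, and the empty space between the groups, 1.76 on the log2 scale, was several times the range within USF1 arrays (0.256) or within Empty vector arrays (0.347). The means were 6.55 ± 0.13 in USF1 cells and 4.49 ± 0.17 in Empty vector cells (SD, n = 3 arrays each). The log2 difference was 2.06 (SE 0.12), a 4.17-fold higher level in USF1 cells. Only 4 of the 16569 probe sets had a larger difference in either direction. All of them were higher in USF1 cells.

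*L1CAM* was also higher in USF1 cells, by far less. Its probe set (Entrez gene 3897) had log2 values of 4.53, 4.34 and 4.46 in USF1 replicates 1, 2 and 3, against 3.94, 3.95 and 4.14 in Empty vector replicates 1, 2 and 3. All of these values were low, well below the array medians of 5.88 to 6.0. The groups did not overlap, and the space between the lowest USF1 array, replicate 2, and the highest Empty vector array, replicate 3, was 0.199, close to the range within USF1 arrays (0.196) and within Empty vector arrays (0.194). The means were 4.44 ± 0.099 in USF1 cells and 4.01 ± 0.11 in Empty vector cells (SD, n = 3 arrays each), a difference on the log2 scale of 0.43 (SE 0.10), or 1.35-fold. A difference of larger size, in either direction, was found in 11.1% of all probe sets. The names of the *L1CAM* and *INA* probe sets end in _s_at, which Affymetrix gives where probes match several transcripts.

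*INA* was lower in USF1 cells. Its probe set (Entrez gene 9118) had log2 values of 6.01, 6.11 and 5.98 in USF1 replicates 1, 2 and 3, against 6.47, 6.41 and 6.39 in Empty vector replicates 1, 2 and 3. All USF1 arrays lay below all Empty vector arrays, with 0.276 between the groups and ranges of 0.133 within USF1 arrays and 0.081 within Empty vector arrays. *INA* thus had the tightest replicates of the 3 genes. The means were 6.03 ± 0.070 in USF1 cells and 6.42 ± 0.042 in Empty vector cells (SD, n = 3 arrays each). The log2 difference was -0.39 (SE 0.08), and the level was 1.31-fold lower in USF1 cells. A difference of larger size was found in 14.6% of all probe sets.

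**Figure D1:**
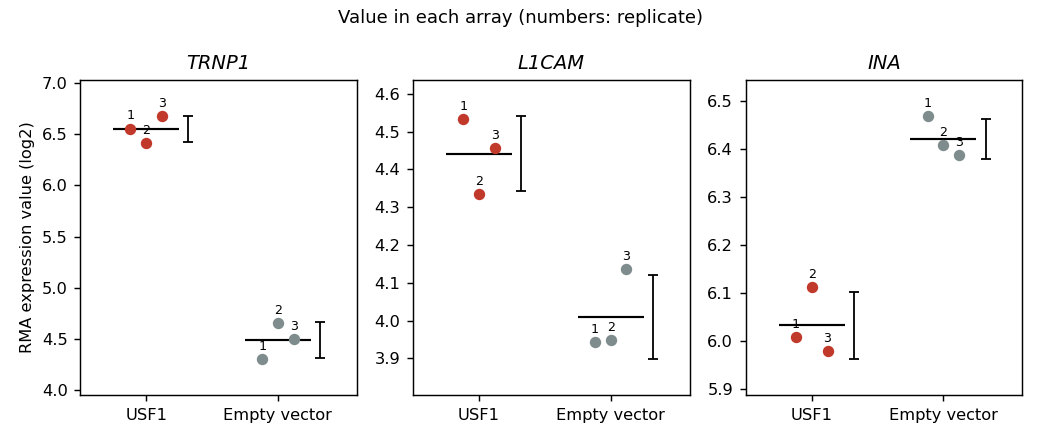
RMA expression value (log2, vertical axes, which differ in range) of *TRNP1*, *L1CAM* and *INA* in each array, in red for USF1 and grey for Empty vector, with the replicate number at each point, the group mean (line) and the SD of 3 arrays (error bar). The USF1 arrays lie above all Empty vector arrays for *TRNP1* and *L1CAM* and below them for *INA*.

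In each of the 3 genes the groups lay apart, which was the case for 36.1% of all probe sets, with USF1 higher in 11.6% and lower in 24.5%. Since the genes were chosen from this contrast, nothing is read from that count and no p-value is given for them. *TRNP1* and *L1CAM* were higher and *INA* was lower, with *TRNP1* far ahead in size. Array by array, the difference between USF1 and Empty vector arrays of the same number was 2.25, 1.76 and 2.17 for *TRNP1*, 0.59, 0.39 and 0.32 for *L1CAM* and -0.46, -0.30 and -0.41 for *INA*. No label says whether arrays of the same number are paired. Since the groups did not overlap, the direction of each of these differences was fixed in advance, and nothing is read from it. The same arrays tended to lie at the ends of the groups. In the USF1 group, replicate 2 was the lowest array for *TRNP1* and *L1CAM* and the highest for *INA*. In the Empty vector group, replicate 1 was the lowest for *TRNP1* and the highest for *INA*. For *L1CAM*, Empty vector replicates 1 and 2 were nearly equal, at 3.94 and 3.95.

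All 3 differences were of like size without the array that stood apart. Without Empty vector replicate 1 the log2 difference was 1.97 for *TRNP1*, 0.40 for *L1CAM* and -0.36 for *INA*. Against Empty vector replicate 3 alone, whose actin value was like that of USF1 arrays, the USF1 mean differed by 2.05 for *TRNP1*, 0.30 for *L1CAM* and -0.36 for *INA*. Of the 3 genes, *L1CAM* moved most in this respect, since its Empty vector replicate 3 was its highest control array. Over all sets with 1 array left out, the log2 difference lay between 1.97 and 2.14 for *TRNP1*, between 0.39 and 0.50 for *L1CAM* and between -0.43 and -0.36 for *INA*. Centring each array on its median gave 2.13 for *TRNP1*, 0.50 for *L1CAM* and -0.32 for *INA*.

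Of the measured genes for partners of *INA* in neuronal filaments, *PRPH* rose, *NEFL* rose at 2 of 3 probe sets, and none fell. *PRPH*, which encodes peripherin, an intermediate filament protein of peripheral neurons, had log2 values of 5.75, 5.55 and 5.58 in USF1 arrays, against 5.0, 4.84 and 4.80 in Empty vector arrays. It rose by 0.74 (SE 0.10, limma-adjusted p-value = 0.00519), and it kept its call when any single array was left out. The neurofilament light chain gene *NEFL*, at its probe set with the highest mean, had 8.14 ± 0.038 in USF1 cells and 7.99 ± 0.11 in Empty vector cells (SD, n = 3 arrays each), a difference on the log2 scale of 0.15 (SE 0.09, limma-adjusted p-value = 0.3). The other 2 probe sets of *NEFL* were higher in USF1 cells by 0.41 (SE 0.08, limma-adjusted p-value = 0.021) and 0.38 (SE 0.09, limma-adjusted p-value = 0.0312). The neurofilament medium chain gene *NEFM* had 10.4 ± 0.12 in USF1 cells and 10.3 ± 0.26 in Empty vector cells (SD, n = 3 arrays each), and the sign of its difference (0.031, SE 0.14) turned without USF1 replicate 2 (-0.01) or Empty vector replicate 3 (-0.10). Nestin (*NES*), of neural progenitors, differed by 0.13 (SE 0.13), and vimentin (*VIM*), of mesenchymal and progenitor cells, by 0.15 (SE 0.10).

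Of 21 genes on a list of intermediate filaments and their linkers, 12 were measured, of which 2 rose and 1 fell. This is 25% of those measured, against 14.1% of 9586 genes called at 1 probe set each, 5.18% upward and 8.89% downward. The list had a median log2 difference of 0.12, where all genes had -0.079. Beside *PRPH*, *BFSP1*, a filament protein of the eye lens, rose by 0.67 (SE 0.14, limma-adjusted p-value = 0.0244). Synemin (*SYNM*), which links filaments to membranes in muscle, fell by 0.46 (SE 0.12, limma-adjusted p-value = 0.037). The call of *SYNM* was lost without any 1 array, with log2 differences of -0.54 to -0.36, and after median centring or quantile normalization. That of *BFSP1* was lost without USF1 replicate 1 or 3 or Empty vector replicate 2 or 3, with differences of 0.55 to 0.82.

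Among the relatives of *L1CAM* at the neuronal surface, no measured gene rose and *KIRREL1* fell, a share near that over all genes. Of 23 neural adhesion molecules of the immunoglobulin superfamily, 8 were measured, and 0 rose and 1 fell (12.5%, against 5.18% of all genes called upward and 14.1% in all), with a median log2 difference of -0.21. At an unadjusted p-value under 0.05, 0 were higher and 4 lower. No share of all genes was computed at this unadjusted threshold, so the split is not read as a trait of these molecules. Over all probe sets the groups lay apart with USF1 lower in 24.5% and higher in 11.6%, so lower values were common in general. *NRCAM*, the measured member of the L1 family beside *L1CAM* itself, had 5.44 ± 0.18 in USF1 cells and 5.21 ± 0.24 in Empty vector cells (SD, n = 3 arrays each), a difference of 0.23 (SE 0.14, limma-adjusted p-value = 0.308). *KIRREL1*, which encodes a protein of the slit diaphragm of kidney podocytes, fell by 0.61 (SE 0.16, limma-adjusted p-value = 0.0423). Its Empty vector arrays were spread widely, at 4.83, 4.57 and 4.16, its call was lost without USF1 replicate 1, 2 or 3 or Empty vector replicate 2 (-0.78 to -0.45 without single arrays), and it was not called after median centring or quantile normalization. Of 27 ankyrins, spectrins, endocytic adaptors, integrins and proteases that bind or cut *L1CAM*, 22 were measured and 0 were called by limma. At an unadjusted p-value under 0.05, 1 of these was higher and 1 lower, and their differences at the probe set with the highest mean lay between -0.22 and 0.24. Over all their probe sets, the differences lay between -0.37 for *FGFR1*, a receptor that L1CAM binds, and 0.44 for *CTTN*, which encodes the actin-binding protein cortactin and was called at that 1 of its 3 probe sets.

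For *TRNP1*, the closest known partner is *TMF1*, the Golgi protein for which it is named. *TMF1* had 7.71 ± 0.076 in USF1 cells and 7.76 ± 0.11 in Empty vector cells (SD, n = 3 arrays each), a difference on the log2 scale of -0.053 (SE 0.09, limma-adjusted p-value = 0.737) that turned to 0.015 after median centring. Over all genes 14.1% were called, 5.18% upward and 8.89% downward, with a median log2 difference of -0.079. Of 36 genes of neural progenitors and partners of *TRNP1*, 22 were measured, 3 rose and 1 fell (18.2%), with a median of -0.013. The genes that rose were *LHX2*, a homeobox factor of the cortex, by 0.55 (SE 0.10, limma-adjusted p-value = 0.0135), the Notch ligand *DLL1* by 0.46 (SE 0.09, limma-adjusted p-value = 0.0211) and *HES6*, which in the mouse favours neuronal differentiation, by 0.40 (SE 0.10, limma-adjusted p-value = 0.0371). *CDK5RAP2*, a centrosome gene mutated in microcephaly, fell by 0.35 (SE 0.08, limma-adjusted p-value = 0.0334) at 1 of its 2 probe sets. All of these differences were smaller in size than the 2.06 of *TRNP1*, which only 4 of the 16569 probe sets exceeded, so this is no trait of the list. *LHX2* lost its call only without USF1 replicate 1 (0.50 to 0.61 without single arrays), and the others lost theirs without USF1 replicate 1 or 3 or Empty vector replicate 2. *DLL1* (0.40 to 0.53) and *HES6* (0.32 to 0.47) also lost it without Empty vector replicate 3, *HES6* and *CDK5RAP2* (-0.40 to -0.32) without USF1 replicate 2, and *CDK5RAP2* without Empty vector replicate 1 and after median centring.

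**Figure D2:**
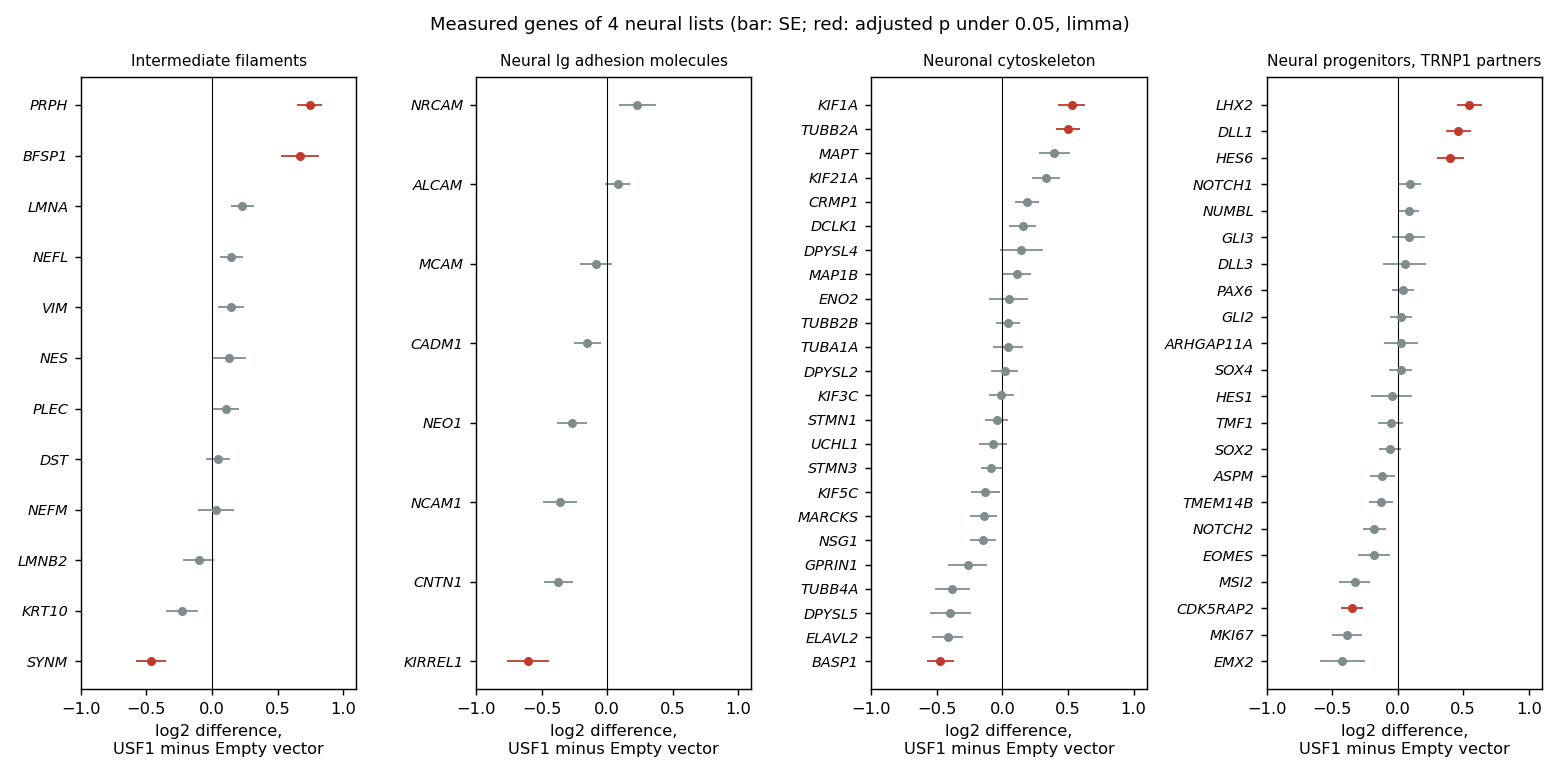
USF1 minus Empty vector mean on the log2 scale (horizontal axes) with its SE (bar) for each measured gene (vertical axes) of 4 neural gene lists, red where limma called a change. *PRPH* is the highest of the filament genes at 0.74, and *KIRREL1* the lowest of the adhesion molecules at -0.61.

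Among broader neuronal genes, *KIF1A*, *TUBB2A* and *STX1A* rose and *BASP1* fell, and the share called was no larger than the 14.1% over all genes. Of 36 genes of the neuronal cytoskeleton and of neuronal differentiation, 24 were measured, 2 rose and 1 fell (12.5%), with a median log2 difference of 0.0041. The axonal kinesin *KIF1A* rose by 0.53 (SE 0.10, limma-adjusted p-value = 0.0178) and the beta-tubulin *TUBB2A* by 0.50 (SE 0.09, limma-adjusted p-value = 0.0152), and *BASP1*, a membrane protein of growth cones, fell by 0.47 (SE 0.10, limma-adjusted p-value = 0.0255). *TUBB2A* is nearly identical in sequence to *TUBB2B*, which differed by 0.04, so that its probe set may also read other tubulins. *UCHL1*, an abundant ubiquitin hydrolase of neurons, had a difference of -0.072 (SE 0.11), which was 0.0012 without USF1 replicate 2. Of 31 genes of synaptic and secretory vesicles, 10 were measured and 1 rose (10%), the syntaxin *STX1A* by 0.40 (SE 0.09, limma-adjusted p-value = 0.0298), with a median of -0.075. The vesicle calcium sensor *SYT1* had a difference of -0.28 (SE 0.09, limma-adjusted p-value = 0.0825). *KIF1A* (0.45 to 0.60 without single arrays), *TUBB2A* (0.46 to 0.55) and *STX1A* (0.34 to 0.44) lost their calls without USF1 replicate 1 or 3 or Empty vector replicate 2, and *STX1A* also without USF1 replicate 2 or Empty vector replicate 3. *BASP1* (-0.57 to -0.41) lost its call without USF1 replicate 2 or 3 or Empty vector replicate 2 or 3.

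*REST* encodes the repressor that keeps many neuronal genes silent outside neurons, among them *L1CAM*. It had 5.65 ± 0.14 in USF1 cells and 5.55 ± 0.096 in Empty vector cells (SD, n = 3 arrays each), a difference on the log2 scale of 0.096 (SE 0.10, limma-adjusted p-value = 0.558). Of 25 genes of the REST complex and its regulators, 22 were measured, 0 rose and 3 fell (13.6%, near the 14.1% called over all genes), with a median of -0.062. At an unadjusted p-value under 0.05, 0 were higher and 7 lower. The share of all genes at this unadjusted threshold was not computed, so nothing about the list is read from this split. Lower values were also the more common over all probe sets, where the groups lay apart with USF1 lower in 24.5% and higher in 11.6%. The 3 genes of the list that limma called lower were *ZNF217*, *CTDSP2* and *CDYL*. *ZNF217* (-0.58, SE 0.12, limma-adjusted p-value = 0.0217) encodes a zinc finger protein found with the corepressor CoREST. *CTDSP2* (-0.46, SE 0.11, limma-adjusted p-value = 0.0369) encodes a phosphatase that REST recruits. *CDYL* (-0.44, SE 0.10, limma-adjusted p-value = 0.0305) encodes a chromodomain corepressor. Other probe sets of *CTDSP2* (1 more) and *CDYL* (2 more) did not pass, and *CTDSP2* was not called after median centring. The corepressor genes *RCOR3* (-0.39) and *SIN3B* (-0.40) were each called lower at 1 of 2 probe sets, but not at the one with the highest mean. The 3 calls were lost without USF1 replicate 1, USF1 replicate 3 or Empty vector replicate 2, when 0 genes of the list were called, and that of *CDYL* also without Empty vector replicate 3, with differences of -0.68 to -0.48 for *ZNF217*, -0.54 to -0.36 for *CTDSP2* and -0.50 to -0.37 for *CDYL* without single arrays.

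The labelled cell type was checked against markers, where limma called 14.1% of all genes, 5.18% upward and 8.89% downward. Of 12 neuron markers, 4 were measured (*NEFL*, *NEFM*, *PRPH* and *SYT1*), and their mean log2 value was 7.38 to 7.5 in USF1 arrays and 7.16 to 7.41 in Empty vector arrays. The other 8, such as *TUBB3*, *MAP2*, *DCX* and *SNAP25*, are not analysed here. Of 6 markers of the kidney lineage, *PAX8*, *SIX2*, *WT1* and *GATA3* were measured, and *GATA3* fell by 0.46 (SE 0.11, limma-adjusted p-value = 0.0344). Of glial markers 1 of 6 and of fibroblast markers 2 of 9 were measured, and 0 were called by limma (0 also unadjusted). Markers of blood cells and of adrenal chromaffin cells are not analysed here. Both measured epithelial markers of 9, *CDH1* and *EPCAM*, rose, by 1.77 (SE 0.11, limma-adjusted p-value = 0.000256) and 0.93 (SE 0.13, limma-adjusted p-value = 0.00664), with a mean log2 value of 5.75 to 5.91 in USF1 arrays and 4.30 to 4.69 in Empty vector arrays. These markers moved with the groups as *TRNP1* and *L1CAM* did, and their part in those values was not tested.

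Genes that lie beside the 3 genes on their chromosomes were compared, 10 protein-coding genes on either side in RefSeq order. Over the 3 loci 36 of 60 such genes were measured, and 4 were called, 3 upward and 1 downward, where 14.1% of all genes were called and 5.18% upward. Beside *TRNP1* 13 genes were measured, and 3 rose and 0 fell, all of them on the side of *TENT5B*. They were *SYTL1*, a Rab27 effector (0.53, SE 0.10, limma-adjusted p-value = 0.0187), the kinase *MAP3K6* (0.50, SE 0.12, limma-adjusted p-value = 0.0358) and *WDTC1* (0.45, SE 0.09, limma-adjusted p-value = 0.0175, at 1 of its 3 probe sets). The nearest measured genes, *TENT5B* on one side and *NUDC* on the other, had log2 differences of 0.21 (SE 0.15) and -0.014 (SE 0.11). No measured neighbour of *TRNP1* had a difference above the 0.53 of *SYTL1*. Beside *L1CAM* 8 genes were measured and 0 were called by limma, with *PDZD4* at 0.22 (SE 0.10) and *HCFC1* at -0.13 (SE 0.10) as the nearest. Beside *INA* 15 genes were measured, and 1 fell, *NT5C2*, a cytosolic nucleotidase and the nearest measured gene on its side, by 0.51 (SE 0.08, limma-adjusted p-value = 0.0103). On the other side, *PCGF6* was at -0.18 (SE 0.13). Without USF1 replicate 1, 0 of these neighbours were called, and without USF1 replicate 3 or Empty vector replicate 2 only 1, *NT5C2*, was. Without Empty vector replicate 3, 2 were, *NT5C2* and *SYTL1*. When the 25% of probe sets with the lowest mean were left out, 1 neighbour was called higher and 2 lower.

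**Figure D3:**
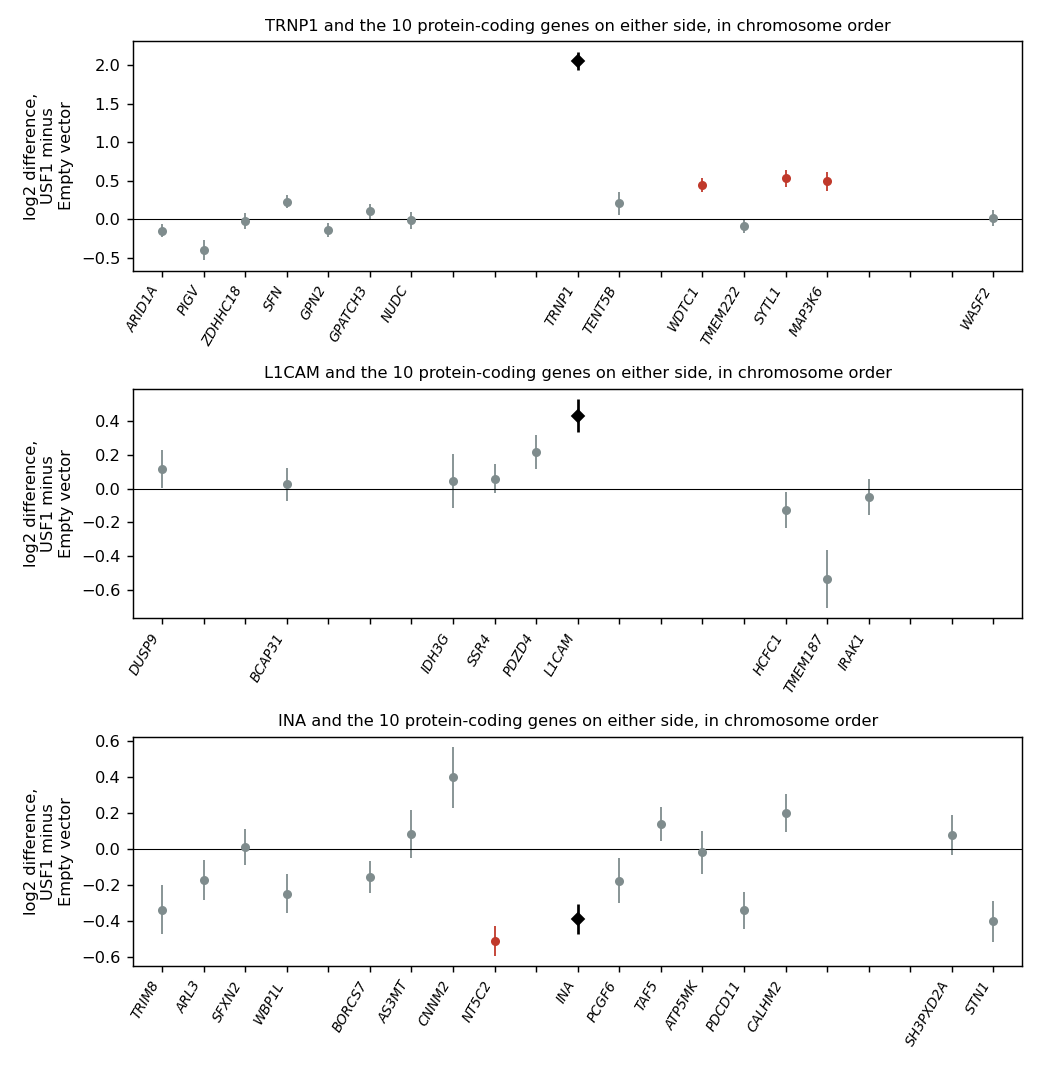
USF1 minus Empty vector mean on the log2 scale (vertical axes, which differ in range) with its SE for *TRNP1*, *L1CAM* and *INA* (black diamonds) and the measured genes among the 10 protein-coding genes on either side (points), in chromosome order, red where limma called a change. *TRNP1*, at 2.06, stands above all measured neighbours, as it does above nearly all probe sets, and 3 of the neighbours on its right are red.

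The genes most like each of the 3 were found by the root mean square difference of log2 values over the 6 arrays, after each gene's mean was subtracted. *TRNP1* had few genes near it. The closest was *DRC8*, a subunit of the dynein regulatory complex, at 0.13, with log2 values of 5.76, 5.61 and 6.01 in USF1 arrays, against 3.74, 3.78 and 3.54 in Empty vector arrays. The imprinted gene *PHLDA2* (0.207), the sphingosine kinase *SPHK1* (0.239), the EGF receptor ligand *HBEGF* (0.242) and *ELSPBP1* (0.258) followed, where the median distance over 9585 genes was 1.09. *L1CAM* lay in a far denser field, with 1553 genes within 0.2 of it. Its closest genes were *KAZN* (0.0299), *IFFO1*, a relative of the intermediate filaments (0.0389), *SLC30A3*, the zinc transporter of synaptic vesicles (0.0398), *LRRC45* (0.0431) and *SPSB3* (0.0461). *INA* had 4913 genes within 0.2. The closest were the repressor *BCL6* (0.0183), *GLMN* (0.0199), the myosin phosphatase subunit *PPP1R12B* (0.0272), *PARP2* (0.0279) and *SMIM10L1* (0.028). This order was not stable, since without single arrays 2 to 5 of the 5 genes stayed closest to *TRNP1*, 1 to 4 to *L1CAM* and 2 to 3 to *INA*. Without Empty vector replicate 1, 2 stayed for *TRNP1* and 1 for *L1CAM*, and without USF1 replicate 1, 1 stayed for *L1CAM*. The points share 6 arrays in 2 groups, and a small distance says nothing of a shared function. The distance is not scaled, so it depends on the size of the group difference by which the 3 genes were chosen. A gene with a large difference has few genes near it for that reason alone.

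**Figure D4:**
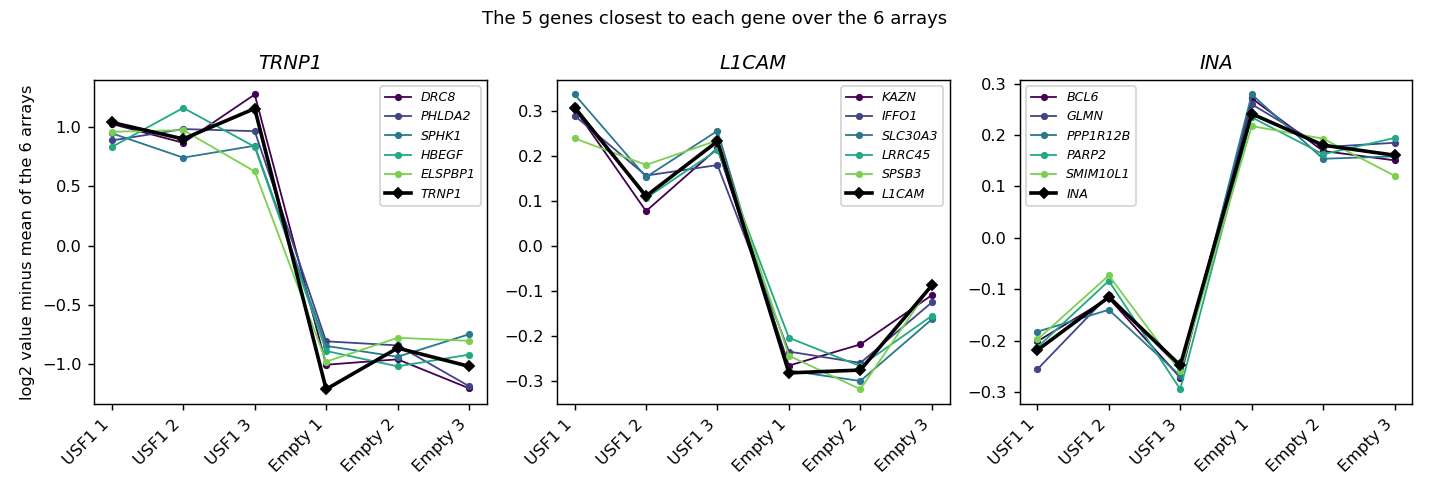
Log2 value minus the mean of the 6 arrays (vertical axes, which differ in range) in each array (horizontal axes) for *TRNP1*, *L1CAM* and *INA* (black diamonds) and the 5 genes closest to each (colours). Lines join the values of 1 gene and imply no order of arrays. *L1CAM* and *INA* are followed more closely than *TRNP1*, which has the larger group difference, on which this distance depends.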

How the data were processed

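Gene expression was measured with Affymetrix arrays in 6 HEK293T samples, 3 per group, mapped by title. The deposited values are log2 RMA values. The authors imported the arrays in R 2.8.0 with justRMA, masked mis-targeted probes, left out probe sets with few probes or mostly absent calls, and corrected batches with ComBat, so the spread between arrays is that left by ComBat. What formed a batch is not stated in those sources. Values were used as deposited. The number of arrays limits the precision.

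The log2 difference was fitted with limma 3.58.1 in R 4.3.3 over all 16569 probe sets, without covariates, with Benjamini-Hochberg adjustment and a threshold of 0.05. Of simulated probe sets with independent noise, 45 of 100 with a log2 change of 0.5 and 99 of 100 with a change of 1 were recovered, with 13 false calls. Far fewer probe sets changed there than the 1974 called in the data, so these shares do not carry over directly. A gene was read at its probe set with the highest mean. Names came from the platform annotation, with 1 symbol for 15099 probe sets, several for 570 and none for 900.

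The 3 genes and the lists were chosen with earlier results of these data known. Named are the 3 genes, up to 6 called genes per list, neuronal marker genes, *REST*, *TMF1*, nearest or called neighbours and the 5 closest genes. Other markers, and values that complete a count, were named after they were seen. The alternatives were other scalings, tests, weights, filters, each array left out in turn, and a block for the replicate number. Those of the neighbours and of the likeness were chosen after seeing the data.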

Additional observations from a re-analysis of the deposited data

How the results depend on the processing

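The log2 differences of *TRNP1*, *L1CAM* and *INA* kept their direction under every alternative run for them, which did not include leaving out probe sets with a low mean. Most of these alternatives could not turn it. The groups did not overlap, so leaving out or weighting arrays could not reverse a sign, and the replicate block leaves the differences unchanged. The difference of *INA* was -0.32 after median centring and -0.32 after a further quantile normalization, and the others moved by less than the SD between arrays. Called over all probe sets were 1974, and 369 to 2222 without single arrays, 3688 with array weights, 3419 with the methods' t-test at their unadjusted threshold of 0.05 and 1 after its Benjamini-Hochberg adjustment, with which 0 genes of each list and 0 neighbours were called. Higher values were 36.2% of the calls, 56.1% after median centring and 50.4% after quantile normalization, and without single arrays 29.4% (without USF1 replicate 2) to 60.2% (without USF1 replicate 3). Without single arrays, 1 to 2 filament genes were called, 0 to 1 adhesion molecules, 0 partners of *L1CAM*, 0 to 4 genes of the neuronal cytoskeleton, 0 to 1 of vesicles, 0 to 3 of progenitors, 0 to 3 of the REST complex and 0 to 4 neighbours. Median centring left 0 adhesion molecules and gave 5 cytoskeleton genes, and quantile normalization also left 0 adhesion molecules. Without the 25% of probe sets with the lowest mean, 1 filament gene, 0 adhesion molecules and 0 vesicle genes were called. At the unadjusted p-value of the methods' t-test, 1 partner of *L1CAM*, 6 cytoskeleton genes, 2 vesicle genes and 6 genes of the REST complex were called, and at the probe set with the largest SD 1 partner of *L1CAM*.

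No label says whether arrays of the same number share more than that number. Their deviations from the group means correlated by 0.096, 0.246 and 0.129 over all probe sets, not all above 0.1, although each array correlated best with its own number. Pairs of unlike number lay between -0.171 and 0.0246. With a replicate block 2875 probe sets, 7 cytoskeleton genes, 7 progenitor genes and 9 neighbours were called. Median centring ended the calls of *SYNM*, *KIRREL1*, *CDK5RAP2* and *CTDSP2*, and quantile normalization those of *SYNM* and *KIRREL1*. The difference of *TMF1* turned to 0.015 after median centring, and that of *NUDC* to 0.054 after it and to 0.037 after quantile normalization. Without single arrays, the differences ranged from -0.10 to 0.15 for *NEFM*, from -0.14 to 0.0012 for *UCHL1* and from -0.078 to 0.056 for *NUDC*. Of 19 called genes named from lists and neighbourhoods, *PRPH* alone was called without each array in turn.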
